A study of Arabidopsis thaliana with 6 samples.

Results

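The 6 genes described here are 5 WRKY transcription factor genes of Arabidopsis thaliana, WRKY6, WRKY20, WRKY22, WRKY47 and WRKY53, and the senescence-associated gene SAG29, which encodes the sugar transporter SWEET15. They were chosen by name: each probe set that the platform annotation paired with 1 of these genes was taken. This gave 6 probe sets for the 6 genes, 1 each, out of 13356 genes that had a probe set of their own. Between them the genes span the range from one of the deepest falls of the series to no measurable difference. The list was drawn up with the signals of the same arrays known, so the differences of the 6 genes are given as a description.

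RNA of 2-week-old seedlings was hybridized to 6 Affymetrix ATH1 arrays. Of these, 3 carried wild type of the accession Col-0 and 3 a transgenic line labelled ASL9-ox, which overexpresses ASL9, a transcription factor gene of the LBD family, which is found in plants only. Both groups were raised on upright plates of MS agar, and the tissue label of both names aerial parts. The labels used here name neither the promoter of the transgene nor the number of independent lines, nor do they say whether the 3 samples of a group were grown separately, so the spread between arrays may be technical. No probe set was paired with ASL9, and the direction of every difference rests on the group labels.

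WRKY proteins bind DNA through a domain named after its conserved amino acids, and their usual target is a short promoter element called the W-box. The family is best known in leaves for its part in defence against pathogens and in senescence, the ordered dismantling of a leaf in which chlorophyll is broken down and nutrients are exported. SWEET proteins are membrane channels that let sugars pass down their gradient. SAG29 is known as a gene that is switched on in ageing leaves and under osmotic stress, and together with SWEET11 and SWEET12 its product feeds sucrose to the developing seed.

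The values are MAS5 signals on a linear scale, which the authors scaled to a common mean on every array. Differences were fitted with limma on log2(signal + 16) over all 17059 probe sets kept, and "rose" and "fell" mean an adjusted p below 0.05 in that fit, with the arrays labelled ASL9-ox set against those labelled wild type. The added 16 makes the fold change of a dim gene smaller than the ratio of its signals. In the whole fit 41.6% of the probe sets passed, 24.6% as higher and 17% as lower, and the groups did not overlap for 54%. Of the 6 genes, 3 passed, all as lower, 3 did not pass, and the groups did not overlap for 4. Because these genes were picked with that contrast in view, nothing is read from the counts.

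The labelled tissue was checked on marker genes. A gene counts as measured if the annotation used gave it a probe set of its own. That annotation left 8794 of 22810 probe sets unnamed, so genes not measured here may still be on the array. All 5 measured leaf markers of 33 listed rose, where 24.6% of all probe sets rose. Of these, RCA, with a log2 fold change of 0.18, passed under only 5 of 16 alternatives and was at -0.09 with quantile normalization. The others were PSAN and LHCB4.1, LHCB4.2 and LHCB4.3 of 1 gene family, so the 5 are not independent markers. Their summed signal was 11984.1 to 13399.5 on the wild-type arrays and 17588.3 to 18500.5 on the ASL9-ox arrays. Of 34 root markers, 3 were measured. The root hair expansin genes EXPA7 and EXPA18 read at most 13.3 on any array, whereas PYK10, a beta-glucosidase gene of roots and hypocotyls, fell from 3054.9 ± 180 to 430 ± 22.2 (SD, n = 3 per group) and set the summed signal of this list, 2851.4 to 3186.1 against 414 to 470. The part of tissue composition in the differences below was not tested, and in RNA of mixed tissue fewer cells of a type and less RNA per cell cannot be told apart. Of 27 seed markers 4 were measured. SDP1, a lipase gene for stored oil, fell by 0.47 on the log2 scale, and the other 3 did not pass or were too dim. On wildtype replicate 2 the storage protein gene PAP85 read 806 and the oil body gene OLEO3 504, against at most 9.88 on the other arrays, and the differences of the 6 genes are therefore also given without that array.

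SAG29 showed the deepest fall of the 6 genes. Its probe set, 245982_at, read 367, 458 and 484 on the 3 wild-type arrays and 3.53, 11.9 and 2.22 on the 3 ASL9-ox arrays. Every wild-type array was far above every ASL9-ox array, and the array carrying wildtype replicate 2, with its seed transcripts, lay between the other 2 of its group. The means were 437 ± 61.4 and 5.87 ± 5.23 (SD, n = 3 per group). On the log2(signal + 16) scale the gene was 20.9-fold lower, with a 95% interval of 16.2 to 27.1 for that fold (log2 fold change -4.39 ± 0.16, SE). A change of at least this size was found for 19 of the 17059 probe sets, SAG29 included, on this scale. That number was 16 with 1 added in place of 16 and 31 with 64 added.

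The size of the SAG29 fall depended on the number added before the logarithm, because its ASL9-ox signals lay below 16. With 1 added, the log2 fold change was -6.25, and with 64 added it was -2.84. Within the ASL9-ox group the highest signal was 5.34 times the lowest, compared with 1.32 times in wild type. Without detection calls, the 3 low values could not be set against background, and no order among them is read. Without wildtype replicate 2 the log2 fold change was -4.35, and over all 6 sets of 5 arrays it ran from -4.57 to -4.27.

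**Figure D1:**
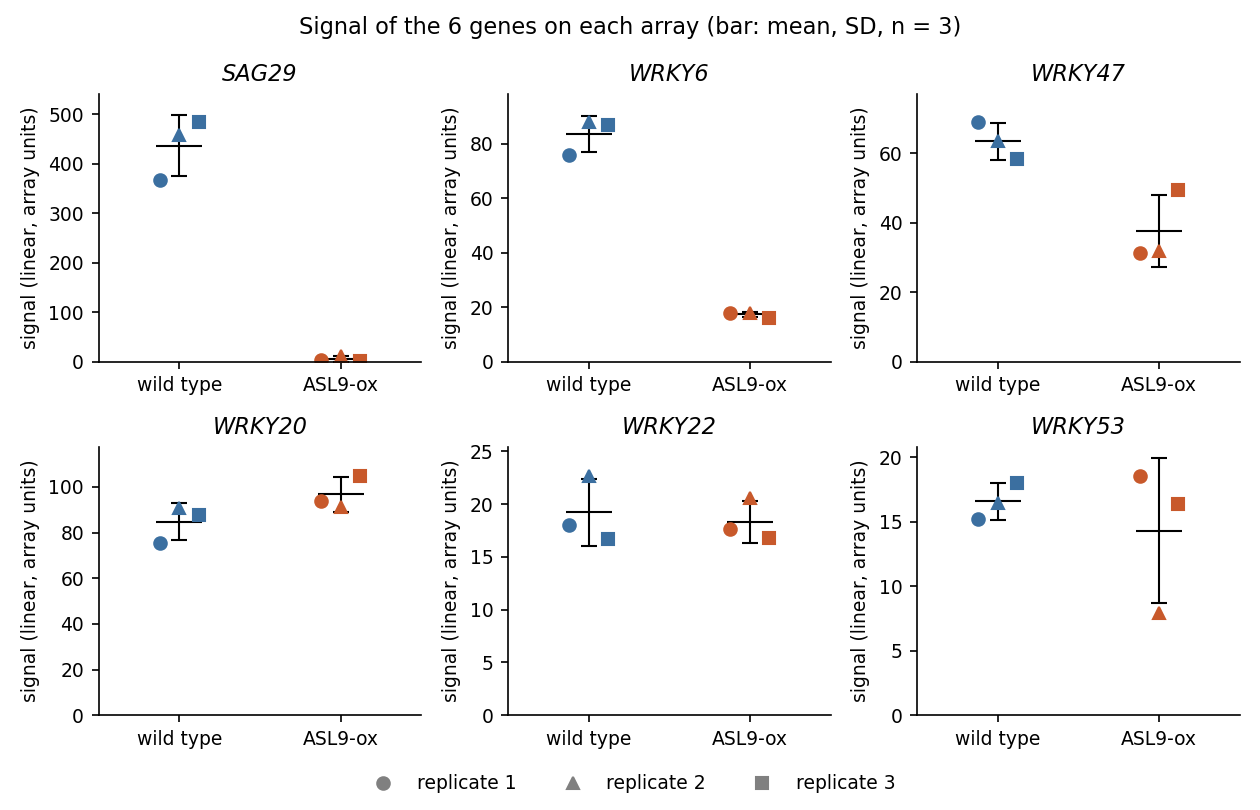
Signal of each of the 6 genes on each array, on a linear axis from 0 in every panel. Symbols mark the replicate number, which does not pair the groups, and bars give the mean and SD of 3 arrays. SAG29 goes from a mean of 437 to 5.87 and WRKY6 from 83.5 to 17.4, whereas the points of WRKY22 and WRKY53 overlap between the groups.

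WRKY6 had the deepest fall among the WRKY genes. It encodes a transcription factor of leaf senescence and pathogen defence, and it is also known to repress the phosphate exporter gene PHO1. Its probe set, 264746_at, read 75.7, 87.8 and 86.9 in wild type and 17.9, 18 and 16.2 in ASL9-ox. The groups were well separated and the arrays of each lay close together, with the highest signal 1.16 times the lowest in wild type and 1.11 times in ASL9-ox. The log2 fold change was -1.57 ± 0.09 (SE). On the log2(signal + 16) scale that is 2.98-fold lower, with a 95% interval of 2.58 to 3.43, which does not hold for the ratio of the signals. A change of at least this size was found for 503 of the probe sets tested (2.95%).

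The ASL9-ox signals of WRKY6 lay close to the added 16 and, without detection calls, could not be set against background. Its fold change also moved with the number added, to -2.20 with 1 added and to -0.86 with 64. Without wildtype replicate 2 it was -1.54.

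WRKY47 fell less, and its ASL9-ox arrays were less alike. It belongs to the same subgroup of the WRKY family as WRKY6, named IIb. Its probe set, 255596_at, read 68.9, 63.4 and 58.3 in wild type and 31.4, 31.9 and 49.4 in ASL9-ox. The groups did not overlap, but ASL9-ox replicate 3 stood above the other 2 arrays of its group and nearer to wild type. The log2 fold change was -0.58 ± 0.13 (SE). On the log2(signal + 16) scale that is 1.5-fold lower, with a 95% interval of 1.22 to 1.85. Without ASL9-ox replicate 3 the log2 fold change was -0.74, and without wildtype replicate 2 it was -0.58. With 1 added in place of 16 it was -0.77, and with 64 added -0.33. A change of at least the size of -0.58 was common, found for 18.1% of the probe sets tested.

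WRKY20, a member of subgroup I, whose proteins carry a pair of WRKY domains, did not pass the threshold. Its probe set, 253983_at, read 75.5, 90.7 and 87.8 in wild type and 93.8, 91 and 105 in ASL9-ox. The groups were separated only by the gap between 90.7 and 91. The log2 fold change was 0.16 ± 0.09 (SE), and its 95% interval, from 0.969-fold to 1.3-fold of wild type, contains no change. Without wildtype replicate 2 the log2 fold change was 0.21.

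WRKY22, of subgroup IIe, acts downstream of the kinase cascade that is started when bacterial flagellin is sensed, and it has been linked to senescence in darkness. Its probe set, 255568_at, read 18, 22.7 and 16.7 in wild type and 17.6, 20.6 and 16.8 in ASL9-ox. The 2 groups covered nearly the same range, and replicate 2 was the highest array in both. The log2 fold change was -0.03 ± 0.11 (SE), with a 95% interval from 0.823-fold to 1.16-fold of wild type. Without wildtype replicate 2 the log2 fold change was 0.04.

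WRKY53, of subgroup III, is known as an early positive regulator of leaf senescence. Its probe set, 254231_at, read 15.2, 16.5 and 18 in wild type and 18.6, 7.91 and 16.4 in ASL9-ox. The groups overlapped, and ASL9-ox replicate 2 was the one array away from the rest. The log2 fold change was -0.12 ± 0.15 (SE), with a 95% interval from 0.729-fold to 1.16-fold. Without ASL9-ox replicate 2 the log2 fold change was 0.04, and without wildtype replicate 2 it was -0.12. The signals of WRKY22 and WRKY53 lay near 16 on most arrays, where the scale compresses differences, so these intervals hold for log2(signal + 16) and not for the ratio of the transcripts.

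**Figure D2:**
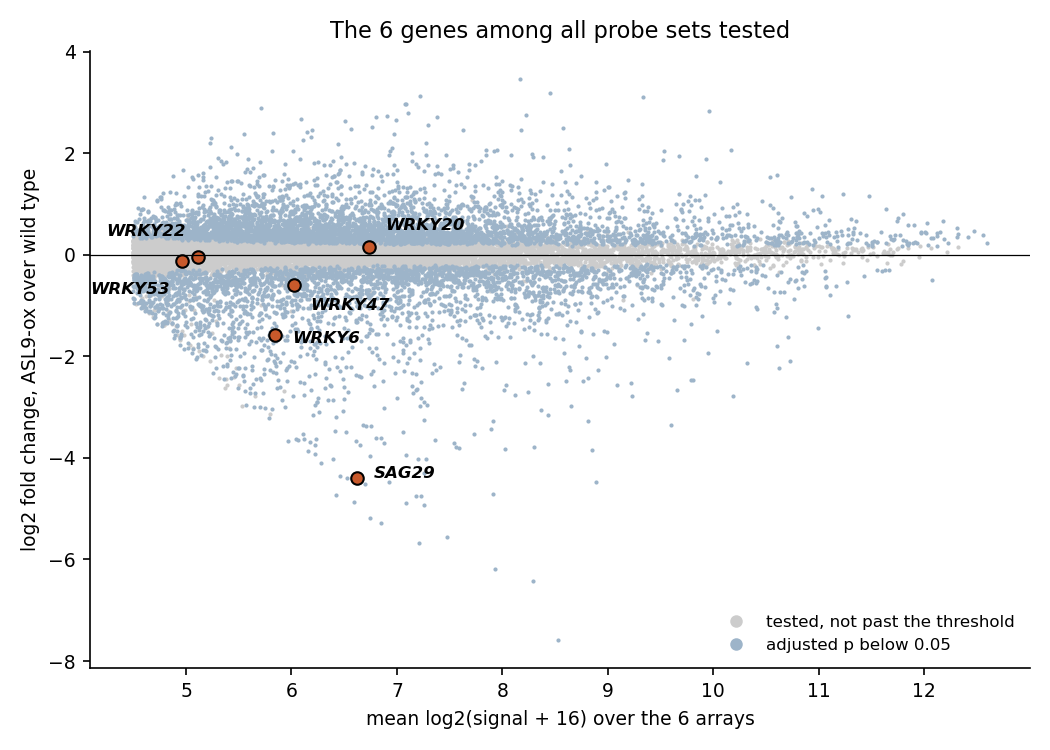
Log2 fold change of every tested probe set against its mean log2(signal + 16) over the 6 arrays, with the 6 genes marked. SAG29, at -4.39, lies among the deepest falls on this scale, WRKY6 and WRKY47 lie at -1.57 and -0.58, and the other 3 lie between -0.12 and 0.16.

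The WRKY family as a whole was sampled thinly by the annotation used, which does not show what the array itself carries. The RefSeq gene table for assembly TAIR10.1 lists 67 genes with a WRKY symbol, and 6 of them had a probe set paired with them alone, the 5 above and WRKY42. WRKY42 is a further member of subgroup IIb and is known to repress PHO1 alongside WRKY6. Its probe set read 0.869, 0.874 and 1.44 in wild type and 7.7, 7.34 and 3.51 in ASL9-ox. It was among the dimmest 25% and was not tested, and at such signals no direction is given.

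Other sugar transporter genes give the setting of SAG29, and 19 of the 45 listed had a probe set of their own. Of the 16 tested, 4 rose, 3 fell and 9 did not pass. These 7 calls make up 43.8%, near the 41.6% of the whole fit, and the median log2 fold change was 0.03 against 0.08 over all probe sets, so the list did not stand apart from the background. Its members moved in both directions.

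Among the SWEET genes that rose, SWEET11, which encodes a sucrose transporter of phloem loading, read 533, 455 and 414 in wild type and 931, 977 and 818 in ASL9-ox. The groups did not overlap, and the log2 fold change was 0.94 ± 0.10 (SE, limma adjusted p = 0.00011). SWEET11 belongs to the same clade as SAG29, that of the sucrose-transporting SWEETs, as do SWEET13 and SWEET14. SWEET13 rose from 19 ± 6.65 to 40.6 ± 2.52 (SD, n = 3 per group; log2 fold change 0.71 ± 0.14, adjusted p = 0.00317 by limma), while SWEET14, at 6.2 ± 2.98 and 8.66 ± 3.97, did not pass. SWEET9 and SWEET10, the remaining measured genes of that clade, read at most 13.9 and were too dim to be tested. Within this clade SAG29 was the only one of the 4 tested genes that fell.

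Outside that clade, SWEET1, a glucose transporter gene, rose from 75.1 ± 11.1 to 177 ± 16.5 (SD, n = 3 per group). Its log2 fold change was 1.08 ± 0.11 (SE, limma adjusted p = 5.75e-05). SWEET4, a transporter gene for glucose and fructose, rose from 9.92 ± 3.54 to 30.7 ± 5.11, with a log2 fold change of 0.85 that was 0.36 with 64 added and 1.58 with 1 added. SWEET2, whose product lies in the vacuole membrane, read 208, 192 and 226 in wild type and 87.4, 132 and 79.3 in ASL9-ox. It fell by 0.99 on the log2 scale, with ASL9-ox replicate 2 nearest to wild type. SWEET17, which encodes a fructose transporter of the vacuole, had the smallest called change, -0.24 (limma adjusted p = 0.0369), and lost the call under 7 of 16 alternatives.

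The deepest fall after SAG29 among the tested sugar transporter genes was that of SFP1, a sugar porter gene of the ERD6-like family that is known to be induced in senescing leaves. It read 675, 814 and 839 in wild type and 207, 241 and 185 in ASL9-ox, without overlap, and its log2 fold change was -1.80 ± 0.11 (SE, limma adjusted p = 3.30e-06). Its relative SFP2 read 43.9 ± 14.4 and 45.4 ± 6.2 and did not pass. TMT1 and TMT2, which load sugars into the vacuole, had log2 fold changes of 0.01 and 0.11 and did not pass either.

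**Figure D3:**
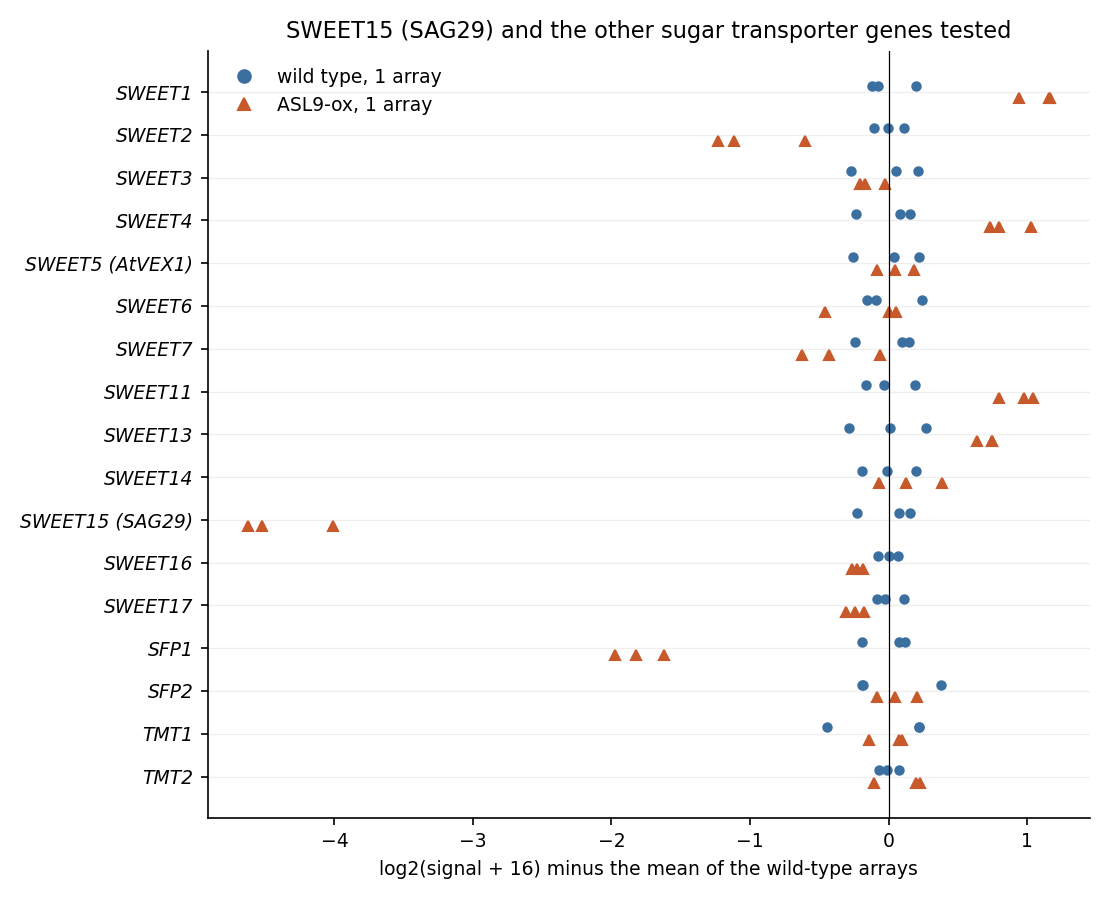
Log2(signal + 16) of SAG29 and the 16 other tested sugar transporter genes, 1 point per array, as the difference from the mean of the wild-type arrays. SAG29 lies far below wild type on all 3 ASL9-ox arrays. SFP1 and SWEET2 lie below wild type, as by less do SWEET17 and SWEET16, of which SWEET16 did not pass. SWEET1, SWEET4, SWEET11 and SWEET13 lie above it.

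The other genes of leaf senescence gave few values. Of 47 names, 3 genes had a probe set of their own. NOL, a chlorophyll b reductase gene of chlorophyll breakdown, rose from 145 ± 5.23 to 180 ± 9.65 (SD, n = 3 per group; log2 fold change 0.28 ± 0.08). EIN3, a transcription factor gene of ethylene signalling, rose from 311 ± 14.9 to 404 ± 11.6 (0.36 ± 0.07). Neither passed when the arrays were centred on the hybridization controls, with limma adjusted p = 0.273 for NOL and 0.0978 for EIN3. SAG101, whose product acts with EDS1 in immunity and which was also the one measured gene on the list of known targets and partners of WRKY6 and WRKY53, read 22.7 ± 5.91 and 22.4 ± 5.22 and did not pass. The list, in which SAG29 and SFP1 were not counted, thus held 2 rises and 0 falls among 3 tested genes. That number is too small to set against the 24.6% and 17% of all probe sets.

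Defence signalling, in which WRKY22 acts, was represented by 2 of 22 listed genes. BIK1, a kinase gene of immune receptor complexes, read 166, 195 and 187 in wild type and 91.3, 98.1 and 102 in ASL9-ox, and fell by 0.81 on the log2 scale (limma adjusted p = 8.63e-05). EFR, which encodes the receptor for a bacterial elongation factor, read 17.9 ± 1.27 and 13.8 ± 4.23 (SD, n = 3 per group) and did not pass. Of the salicylic acid list, 1 of 26 names was measured. GRX480, a glutaredoxin gene of that pathway, read 27.3, 24.6 and 29.5 in wild type and 21.1, 7.49 and 27.1 in ASL9-ox and did not pass. Its lowest array was ASL9-ox replicate 2, as for WRKY53, but both values are dim and, without detection calls, nothing is read from this.

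Osmotic stress and abscisic acid, which are known to induce SAG29, were represented by 3 of 36 listed genes. The dehydrin gene LTI30 fell from 262 ± 19.5 to 33.4 ± 3.69 (SD, n = 3 per group), and its log2 fold change was -2.49 ± 0.09 (SE, limma adjusted p = 1.31e-07). COR15A, which encodes a protective protein of the chloroplast, rose from 56.1 ± 11.9 to 208 ± 71.1 (1.60 ± 0.21, adjusted p = 0.000329 by limma). The dehydrin gene COR47 read 486 ± 22.6 and 451 ± 14.8 and did not pass. As with the sugar transporters, calls in this list were made in both directions.

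Genes with the most similar profile were sought among the 9454 other tested probe sets paired with 1 gene. Likeness was the root mean square distance between 2 profiles of log2(signal + 16) over the 6 arrays, each centred on its own mean. The nearest to SAG29 were the oxidase genes AT5G44380 and AT1G30700, both of the berberine bridge enzyme-like family, and the peroxidase gene AT5G64120, at distances of 0.232, 0.273 and 0.285, where the median over all 9454 was 2.25. AT5G44380 read 745, 756 and 778 in wild type and 12.6, 16.3 and 10.3 in ASL9-ox.

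The nearest to WRKY6 were the pectin methylesterase gene AT3G43270, SDH1-1, which encodes the flavoprotein subunit of mitochondrial succinate dehydrogenase, and the peroxidase gene AT3G21770. Their distances were 0.0551, 0.063 and 0.0634, with a median of 0.842 over all. AT3G43270 read 144, 187 and 173 in wild type and 44, 45.1 and 44.3 in ASL9-ox. SDH1-1 went from 709 ± 72.5 to 240 ± 14 and AT3G21770 from 177 ± 12.5 to 50 ± 4.1 (SD, n = 3 per group). All 6 of these genes fell, which follows from seeking profiles close to those of SAG29 and WRKY6. With 6 arrays in 2 groups, a small distance says mainly that the fall has the same size on this scale, and many probe sets share such a profile.

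**Figure D4:**
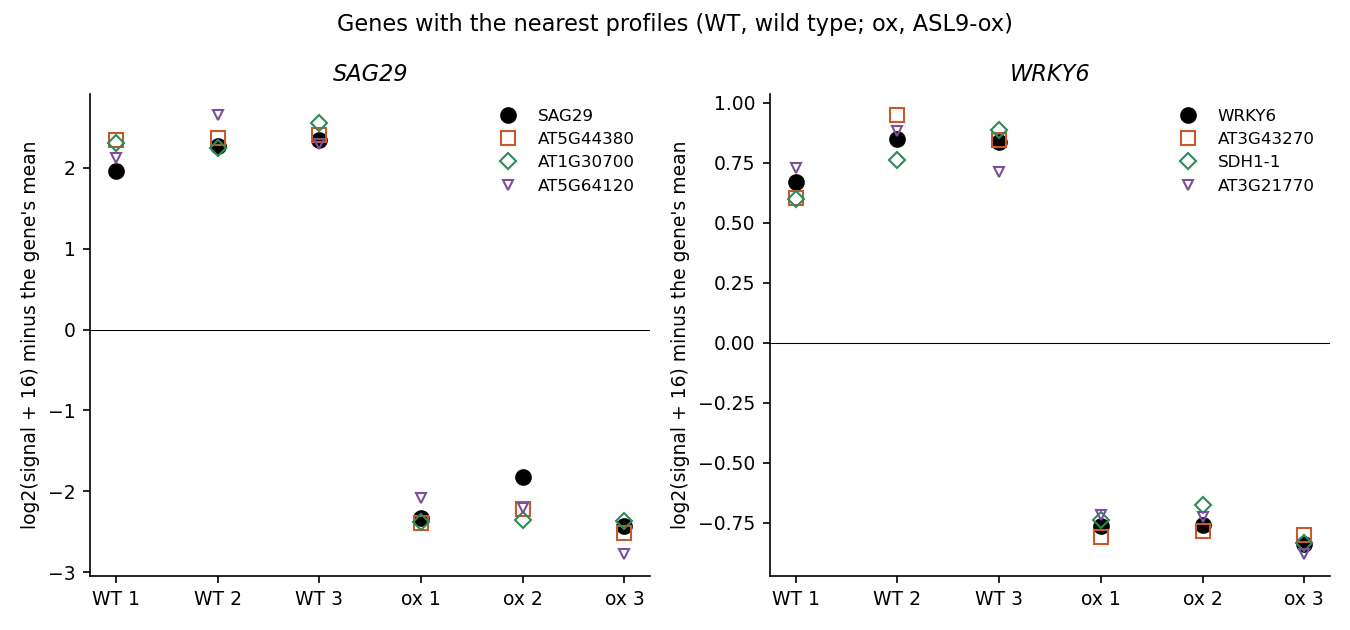
Profiles of SAG29 and WRKY6 over the 6 arrays, each with its 3 nearest genes, as log2(signal + 16) minus the mean of each gene. In both panels the 4 genes lie above their mean on the 3 wild-type arrays and below it on the 3 ASL9-ox arrays. The nearest genes were chosen for this likeness.

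Across 16 other ways of processing, the calls of the 6 genes did not change. SAG29, WRKY6 and WRKY47 passed as lower wherever they were tested, with the highest limma adjusted p-values at 6.57e-06, 3.98e-05 and 0.029. WRKY20, WRKY22 and WRKY53 passed under none of the alternatives that tested them, with the lowest adjusted p-values at 0.16, 0.543 and 0.296. Centring the arrays on the hybridization controls, which moves every difference down by 0.093, left WRKY20 at 0.07.

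**Figure D5:**
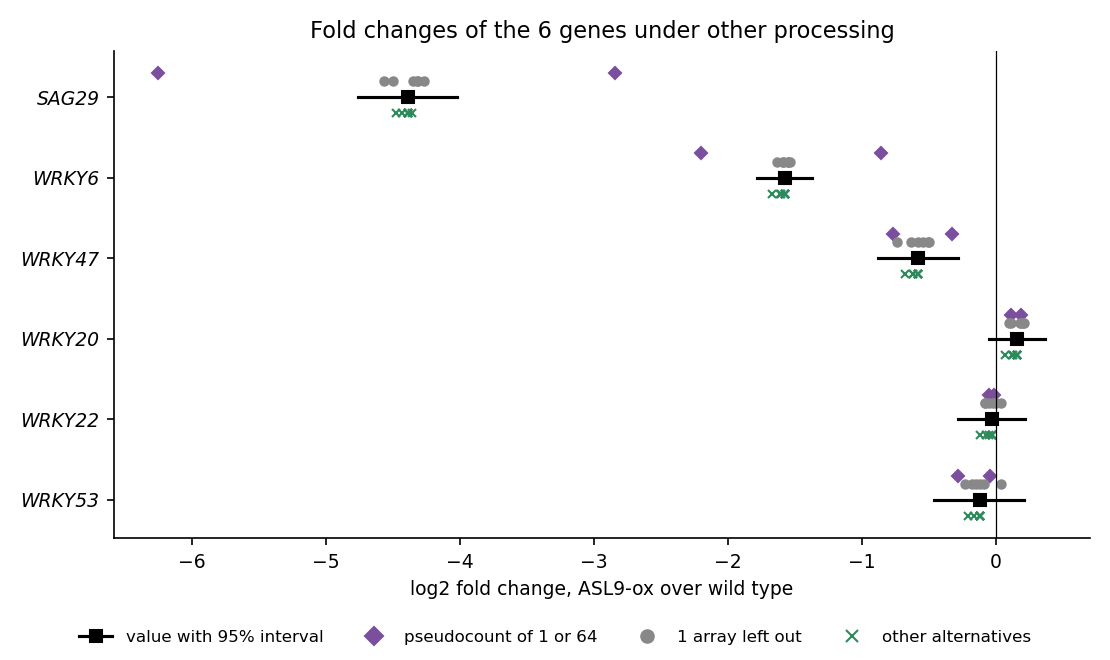
Log2 fold changes of the 6 genes with their 95% intervals (black) and under the 16 alternatives. The number added before the logarithm moves SAG29 between -6.25 and -2.84 and WRKY6 between -2.20 and -0.86, whereas leaving out 1 array moves SAG29 between -4.57 and -4.27 and WRKY6 between -1.63 and -1.54.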

How the data were processed

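The deposited values were intensities of 22810 probe sets on 6 arrays, which the authors made with MAS5 and GCOS, per the submitters' processing notes (versions and genome build not given in the sources used here). After trimming 2% at either end, the mean signal of every array was 100.01, which would hide any change shared by all transcripts. The number of arrays limits the precision. Of the probe sets, 13513 had 1 gene in the platform annotation, 503 had several, and 8794 were unnamed here. For 13436 of the first kind, current symbols came from the RefSeq table of TAIR10.1. The 64 controls were left out, as were the 25% of remaining probe sets with the lowest mean. In R 4.3.3, limma 3.58.1 (lmFit, then eBayes with trend) gave two-sided tests, adjusted by Benjamini-Hochberg over 17059 probe sets. The procedure was run on simulated data with far fewer changed probe sets than were called here, so that run does not cover this setting. Intervals are limma's, for 1 gene at a time. Members and gene lists were chosen with earlier results of these data known. List genes were matched by symbol or synonym, taking the brightest probe set per gene. In each list and direction up to 4 called genes were named, or the one with the smallest p where none passed, and 3 genes were named per likeness search. Some genes that did not pass or were not tested are also named, and were not picked by this rule. Equal replicate numbers were checked for pairing: the deviations of such arrays from their group means had correlations of -0.12, -0.06 and 0.02, and the numbers were taken to pair nothing. Figures were drawn with matplotlib 3.10.9.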

Additional observations from a re-analysis of the deposited data

How the results depend on the processing

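The 16 alternatives changed the scaling (quantile normalization, centring on the array median or on 9 hybridization controls), the pseudocount (1 or 64), the filter (none, or 50% left out), the variance model (no trend, or robust), the design (replicate block) or the arrays (each left out in turn). The total of 7096 calls lay between 5420 and 7137 over them, and between 5560 and 6364 with 1 array left out. With the replicate block 6174 probe sets passed, and no call of the 6 genes changed. The 6 genes gave 94 values under the alternatives, of which 91 kept their direction and side of the threshold and 3 changed sign without passing. These were WRKY22, at 0.04 when wildtype replicate 2 and at 0.00 when ASL9-ox replicate 3 was left out, and WRKY53, at 0.04 without ASL9-ox replicate 2. With 1 array left out the log2 fold changes ran from -0.08 to 0.04 for WRKY22 and from -0.23 to 0.04 for WRKY53. The filter of 50% removed WRKY22 and WRKY53 from the test. Without a filter WRKY42 was tested as well and passed (1 further WRKY gene called in place of 0), at signals too low to give a direction. In the senescence list 0 genes passed with centring on the hybridization controls in place of 2, and 1 to 2 with 1 array left out: NOL lost its call when wildtype replicate 2 or ASL9-ox replicate 1 was missing. SWEET17 lost its call with that centring, with no trend, with the replicate block, and when replicate 2 or 3 of either group was left out. The sugar transporter list held 5 to 7 calls. Of 523 values of the 33 other genes followed under the alternatives, 497 kept direction and side, 21 lost the call and 5 changed sign without passing. The sign changes came in RCA, at -0.09 with quantile normalization, in SAG101, which ran from -0.14 to 0.09 with 1 array left out (0.05 and 0.07 without wildtype replicates 2 and 3, 0.09 without ASL9-ox replicate 1), and in AT1G62290, which ran from -1.86 to 0.28, the latter without wildtype replicate 2. The cause of these shifts was not tested. Dim signals limit WRKY22, WRKY53, WRKY42 and the ASL9-ox values of SAG29 and WRKY6.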

Other observations

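The genes next to the 6 on the chromosome, in the RefSeq order of protein-coding genes, were looked up after the values of the 6 were known. Of these 12 neighbours, 7 had a probe set of their own and 6 were tested. Of those, 3 rose, 0 fell and 3 did not pass, where 24.6% of all probe sets rose. WRKY53, whose own groups overlapped, lies between 2 genes that rose. AT4G23820 read 206, 176 and 178 in wild type and 468, 431 and 464 in ASL9-ox, a log2 fold change of 1.22 ± 0.08 (SE, limma adjusted p = 5.38e-06). The chromatin protein gene 3xHMG-box2 read 85, 65.7 and 68.7 in wild type and 108, 180 and 166 in ASL9-ox (0.89 ± 0.17, adjusted p = 0.00243 by limma). Next to WRKY47, which fell, AT4G01730 rose from 15.3 ± 1.09 to 31.1 ± 3.14 (SD, n = 3 per group), and CRK, on the other side, read 50.3 ± 6.38 and 55.1 ± 10 and did not pass. AT4G26650, next to WRKY20, read 166 ± 11 and 141 ± 10.3 and did not pass. Both neighbours of SAG29, PBS1 and NAC083, were not analysed here, since no probe set was paired with either alone.

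AT1G62290, the neighbour of WRKY6, read 766 on wildtype replicate 2 and 24.5 to 50.7 on the other 5 arrays. It shared this pattern with the seed genes PAP85 and OLEO3, whereas WRKY6 itself read 87.8 on that array, within 1 unit of the 86.9 of wildtype replicate 3.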
